A study of Rattus norvegicus with 23 samples.

Results

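The 41 genes described here are known for their expression in endothelial cells, the cells that line blood and lymph vessels. They were listed by name and found among the 23032 genes measured on rat expression arrays. The rule that names them uses no measured value, but earlier results of these data were known when the list was drawn up. Counts over the list are therefore descriptions and not independent support. Total RNA of the accessory lobe of the lung was measured in male F344 Fisher rats that were 19 months old when the inhalation began, with 1 rat per single-colour Agilent array. Control rats breathed filtered air and exposed rats breathed an aerosol of TiO2 (Aeroxide P25, a nanostructured titanium dioxide) through the nose only, at 10 mg/m3 for 6 h a day on 5 days a week over 4 weeks. Rats were killed at the end of exposure (D0: 6 control and 5 exposed rats) or 28 days later (D28: 6 control and 6 exposed rats), after exsanguination under anaesthesia. All rats were of this strain, age and sex and had been held for nose-only inhalation, and each day had its own control rats. The methods speak of 6 exposed rats on D0, and the series holds arrays of 5 exposed rats of that day. For the 6 exposed rats of D28 the source label names day 0, but day 28, as in titles and descriptions, was taken.

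In the lung, blood reaches the alveoli through arteries, passes a dense capillary net and leaves through veins, and each of these segments is lined by endothelium with its own genes. Capillaries hold both large aerocytes, which face the air and carry Ednrb, Car4 and Apln, and general capillary cells that carry Aplnr, Gpihbp1 and Plvap. Endothelial cells hold each other by Cdh5 and Cldn5, are kept alive by VEGF and angiopoietin receptors, and set vessel tone through nitric oxide and receptors for endothelin, natriuretic peptides and sphingosine-1-phosphate (S1P).

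All 41 members were measured, by 64 probes, and 17 members had more than 1 probe, whose values were averaged. Values are log2 normalized signals, and a difference is the mean of exposed minus that of control rats of the same day, so that -1 is a halving. Pecam1 and Cdh5, the 2 defining markers, were well above background on all 23 arrays, as was every other member but Sox17 and Gpihbp1. Sox17 was well above background on 4 of the 5 exposed arrays of D0, and Gpihbp1 on 3 of these and on 4 of 6 control and 4 of 6 exposed arrays of D28. The 23 arrays lay on 5 slides of 1 to 7 arrays, 75th percentile signals ran from 1383 to 3470, and 69.5% to 77.9% of spots were well above background. No 2 arrays held the same values (highest correlation 0.989). Since whole lobe RNA was measured, fewer endothelial cells, less of these RNAs per cell and a larger share of RNA from other cells cannot be told apart.

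At the end of exposure the endothelial genes lay low as a group. On D0, 38 of 41 members had a lower mean in exposed than in control rats, where 50.1% of all genes did, and the median difference of the members was -0.28 (17.6% lower signal) against -0.00 for all genes tested. With limma, 4 members fell at an adjusted p below 0.05, namely Ednrb, S1pr1, Lyve1 and Erg, and none rose; of all genes 1.35% fell and 1.51% rose by this rule. With a fold change (FC) of at least 1.5 as well, S1pr1 was the 1 member left (0.695% of all genes). At an unadjusted p below 0.05, 20 members were lower (6.34% of all genes) and 0 were higher (5.61%). The exposed rats all lay below all control rats for 5 members, Esam, Flt1, Ednrb, S1pr1 and Egfl7 (2.37% of all genes). Of the fits that left out 1 array, those without control rat 2 or 5 or without exposed rat 4 or 5 of D0 gave 2 members past the adjusted p in place of 4. Of all genes 2% to 2.22% passed in these fits, against 2.86% with all arrays. Those without control rat 1 or 4 or exposed rat 1, 2 or 3 gave 2 members past both limits in place of 1, where 315 to 360 of all genes passed both.

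On D28 the pattern was alike in sign, and the members that passed the test were in part others. A lower mean in exposed rats was seen for 37 members (51.2% of all genes), with a median difference of -0.22 (14.2% lower signal). Npr3, Tek and Ednrb fell with an adjusted p below 0.05 (0.534% of all genes), and none rose (0.782%). Only Npr3 also reached the FC of 1.5 (0.269% of all genes). Unadjusted p below 0.05 was reached by 17 members, all lower (6.19% of all genes were lower and 4.82% higher by this rule), and exposed and control rats did not overlap for 5 members, Cdh5, Ephb4, Sox18, Ednrb and Npr3 (0.543% of all genes). Without control rat 5 or exposed rat 1 of D28, 1 member passed the adjusted p in place of 3. Of all genes 0.838% and 0.643% passed in these fits, against 1.32% with all arrays.

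**Figure D1:**
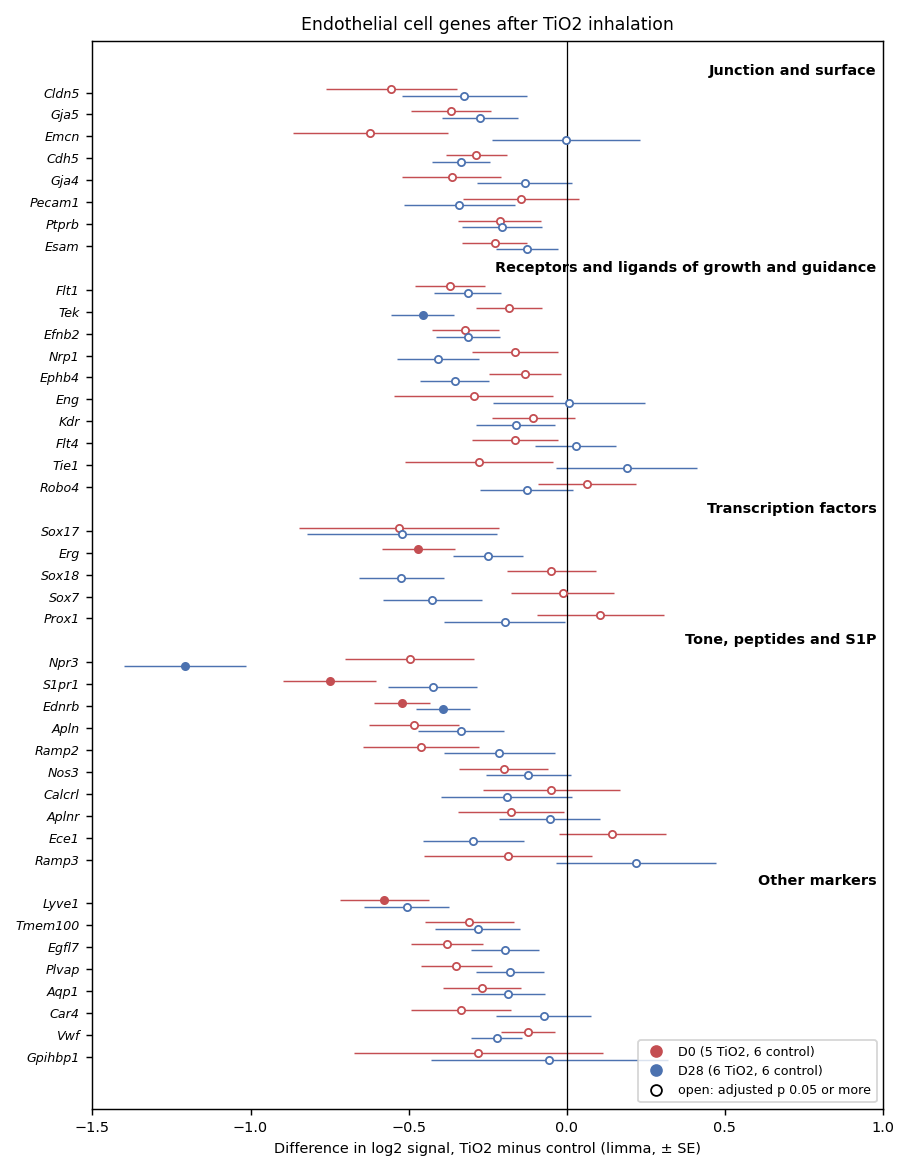
Difference in log2 signal between exposed and control rats for each of the 41 endothelial genes, ordered by role, with the limma standard error as bars; red is D0, blue is D28, and filled points have an adjusted p below 0.05. Nearly all points lie left of 0, by a median of 0.28 on D0 and 0.22 on D28, and Npr3 on D28 lies farthest to the left.

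Across both days 34 members had a lower mean in exposed rats each time (32.1% of all genes), and 11 were lower with an unadjusted p below 0.05 on both (2.44% of all genes). The mean of the D0 and D28 effects, which draws on all 23 arrays, was negative for 40 members (50.5% of all genes), all but Ramp3. In this comparison 13 members fell with an adjusted p below 0.05 (3.5% of all genes) and none rose (3.05%): Cdh5, Gja5, Flt1, Tek, Efnb2, Erg, Ednrb, Apln, Npr3, S1pr1, Egfl7, Plvap and Lyve1. S1pr1 and Npr3 were the 2 that also reached the FC of 1.5 (0.677% of all genes), and 1 member in place of 2 did so in 8 of the 23 fits without 1 array: without control rat 1, 3 or 6 or exposed rat 4 of D0, and without control rat 2 or 4 or exposed rat 1 or 5 of D28. The fits without 1 array gave 10 to 15 members past the adjusted p (5.64% to 6.82% of all genes, against 6.55% with all arrays). Whether an effect differed between days was tested as well, and no member passed (smallest adjusted p 1.00 by limma, where 0.00868% of all genes were lower on D28 and 0.0217% higher); Npr3 and Sox18 had an unadjusted p below 0.05 for this difference (1.89% of all genes were lower on D28 by that rule).

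The low values were spread over the rats rather than carried by 1 of them. The mean signal of the 41 members was 10.64 to 10.81 in the control rats of D0, and 10.54, 10.48, 10.51, 10.27 and 10.44 in exposed rats 1 to 5, so that the groups did not overlap. On D28 it was 10.55 to 10.93 in control rats and 10.39 to 10.70 in exposed rats, and the groups overlapped through control rat 4, at 10.55, and exposed rat 3, at 10.70. The array of control rat 4 was alone on slide 5, had the highest 75th percentile signal (3470) and was read with another software version. Without it the median difference of D28 was -0.29, with 39 members lower and 2 past the adjusted p (1.06% of all genes). Counted gene by gene, each exposed rat of D0 had 29 to 38 of the 41 members below the median of its controls, and each exposed rat of D28 had 25 to 36. Single control rats had 11 to 29 members below the median of their own group.

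**Figure D2:**
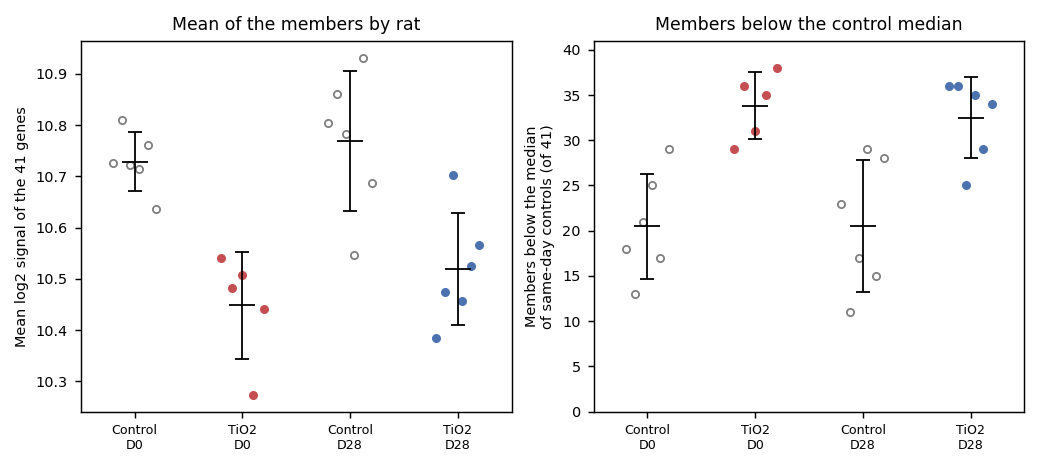
Left, the mean log2 signal of the 41 members in each rat; right, the number of members below the median of the control rats of the same day; points are rats, open for controls, and bars are the group mean ± SD. The exposed rats of D0, at 10.27 to 10.54, lie below all control rats of that day, and exposed rat 3 of D28, at 10.70, lies among its controls.

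Slides held both groups, so the difference can be read within a slide. Within slides 1 to 4 the median difference of the members on D0 was -0.46, -0.26, -0.26 and -0.12, with 35, 34, 37 and 29 of 41 members lower. On D28 it was -0.27, -0.31 and -0.20 within slides 1, 2 and 4, with 36, 38 and 32 members lower; slide 3 held no control and slide 5 no exposed rat of that day. These values rest on 1 or 2 rats a group and carry no test. With the slide as a term in the limma fit, in which control rat 4 of D28, alone on its slide, adds nothing, 10 members passed the adjusted p on D0, 4 on D28 and 22 for the mean effect. That fit passed more of all genes too, 1235, 636 and 2399 against 658, 303 and 1509 without the term.

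Among the 10 genes that act on vessel tone or in the S1P pathway, 9 had a lower mean in exposed rats on D0 and 9 on D28 (50.1% and 51.2% of all genes). On each day 2 fell by the adjusted p (1.35% and 0.534% of all genes). Ednrb, the endothelin B receptor, which takes up endothelin and drives nitric oxide release, fell on both days. On D0 its log2 signal was 11.04 to 11.34 (median 11.28) in control rats and 10.95, 10.93, 10.65, 10.45 and 10.66 in the exposed rats. On D28 it was 11.30 to 11.44 (median 11.36) in control rats and 10.86 to 11.21 (median 10.96) in exposed rats. Exposed and control rats were fully apart on both days, which held for no other member. The difference was -0.52 (SE 0.0897, 30.3% lower, limma adjusted p = 0.00184) on D0 and -0.39 (SE 0.0856, 23.8% lower, limma adjusted p = 0.0246) on D28, and its 2 probes gave -0.58 and -0.47 on D0 and -0.40 and -0.39 on D28. The D0 call held in every fit; that of D28 was lost without control rat 5 or exposed rat 1 or 4 (limma adjusted p 0.0521 to 0.0669).

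S1pr1 is the S1P receptor through which endothelium keeps its barrier closed, and it had the largest difference of all members on D0. Its signal was 12.59 to 12.90 (median 12.74) in control rats of D0 and 11.96, 12.01, 12.33, 11.66 and 11.98 in exposed rats, with a clear gap between the groups. The difference was -0.75 (SE 0.148, 40.5% lower, limma adjusted p = 0.0057). On D28 control rats had 12.64 to 13.16 (median 12.80) and exposed rats 11.92 to 12.76 (median 12.60). Exposed rats 1 and 5 were lowest, at 12.06 and 11.92, the other 4 lay among the controls or just below them, and the difference of -0.42 (SE 0.141, limma adjusted p = 0.176) did not pass.

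Npr3, the clearance receptor that removes natriuretic peptides from the blood, had the largest difference on D28. On D28 its signal was 8.02 to 8.70 (median 8.37) in control rats and 6.60 to 7.95 (median 7.16) in exposed rats, and the groups did not overlap, although exposed rat 4, at 7.95, came close. Npr3 fell by 1.21 on the log2 scale (SE 0.194, 56.7% lower, limma adjusted p = 0.00268), and its 3 probes, of which 2 have the same sequence, were all lower, by 0.93 or more. On D0 control rats had 7.39 to 7.999 (median 7.74) and exposed rats 7.66, 7.38, 7.24, 6.61 and 7.30, with a difference of -0.50 (SE 0.203, limma adjusted p = 0.277). Control rats themselves were higher on D28 than on D0, by 0.65 (SE 0.194, limma adjusted p = 0.133).

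Apln, the apelin peptide made by aerocytes and tip cells, fell for the mean of both days by 0.41 on the log2 scale (SE 0.0980, limma adjusted p = 0.0118). On D0 its signal was 12.68 to 13.51 (median 13.23) in control rats and 12.73, 12.76, 12.81, 12.26 and 12.79 in exposed rats, and on D28 it was 13.00 to 13.56 (median 13.35) and 12.68 to 13.22 (median 13.01). The groups overlapped on both days, on D0 through the lowest control rat. None of the other 6 members of this group passed in the day or mean comparisons. Ramp2, which with Calcrl forms the adrenomedullin receptor, differed by -0.46 on D0 and -0.21 on D28, and Calcrl itself by -0.05 and -0.19. The apelin receptor Aplnr differed by -0.18 and -0.05, and Nos3, the endothelial nitric oxide synthase, by -0.20 and -0.12. Ece1, which cleaves endothelin to its active form, was at 0.14 on D0 (-0.01 with the brightest probe alone) and -0.29 on D28, and Ramp3, another partner of Calcrl, at -0.19 and 0.22 (-0.03 on D28 with the slide as a term).

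**Figure D3:**
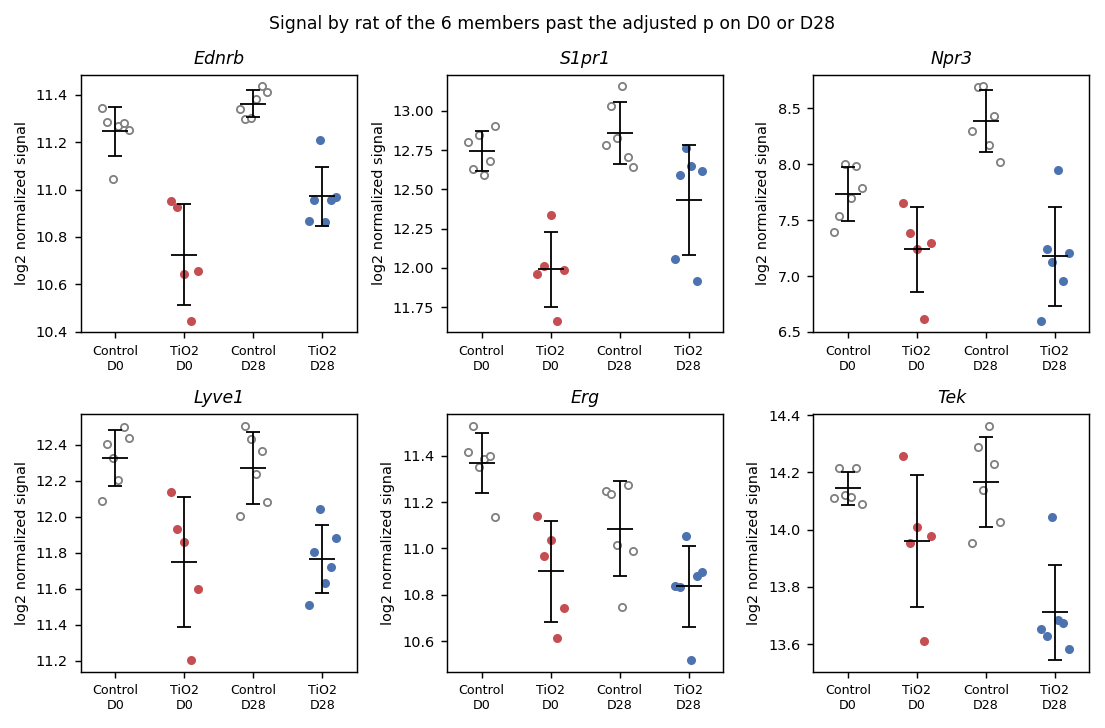
Log2 normalized signal of Ednrb, S1pr1, Npr3, Lyve1, Erg and Tek in each rat, with the group mean ± SD; open points are control and filled points exposed rats, and each axis has its own range. Ednrb separates the groups on both days, S1pr1 only on D0, from 12.59 upward in controls and up to 12.33 in exposed rats, and Npr3 only on D28.

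Promoter sequence could be set beside these values for 27 of the 41 members and 5 of the 6 members past the adjusted p on D0 or D28. The 250 bases before the start of each gene are shown for these 5 because their signals fell; they are from RefSeq on the rat assembly GRCr8, 5′ to 3′ on the strand of the gene, with the letters CAGGAA, a core bound by ETS factors such as Erg, in capitals on either strand (TTCCTG is its reverse).
Ednrb, chr15:87086766-87087015, minus strand: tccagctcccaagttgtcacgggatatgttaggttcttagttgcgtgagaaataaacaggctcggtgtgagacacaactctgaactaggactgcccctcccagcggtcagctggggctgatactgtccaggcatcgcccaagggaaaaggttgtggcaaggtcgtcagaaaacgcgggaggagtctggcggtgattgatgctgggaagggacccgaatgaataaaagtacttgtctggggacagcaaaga
S1pr1, chr2:206314071-206314320, minus strand: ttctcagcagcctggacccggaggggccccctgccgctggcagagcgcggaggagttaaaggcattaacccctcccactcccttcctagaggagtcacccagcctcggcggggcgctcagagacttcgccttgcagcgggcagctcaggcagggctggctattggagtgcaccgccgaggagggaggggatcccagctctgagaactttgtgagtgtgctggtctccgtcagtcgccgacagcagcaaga
Lyve1, chr1:174410978-174411227, minus strand: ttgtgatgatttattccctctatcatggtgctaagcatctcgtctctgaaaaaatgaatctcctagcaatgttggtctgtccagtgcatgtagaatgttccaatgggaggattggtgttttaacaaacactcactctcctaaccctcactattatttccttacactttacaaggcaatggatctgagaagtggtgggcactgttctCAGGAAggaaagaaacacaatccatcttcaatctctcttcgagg
Erg, chr11:48251567-48251816, minus strand: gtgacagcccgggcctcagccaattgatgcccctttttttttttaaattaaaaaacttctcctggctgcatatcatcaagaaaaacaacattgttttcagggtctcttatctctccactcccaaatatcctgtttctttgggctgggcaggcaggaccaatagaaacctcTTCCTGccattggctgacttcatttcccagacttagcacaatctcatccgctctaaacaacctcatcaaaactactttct
Npr3, chr2:62658766-62659015, minus strand: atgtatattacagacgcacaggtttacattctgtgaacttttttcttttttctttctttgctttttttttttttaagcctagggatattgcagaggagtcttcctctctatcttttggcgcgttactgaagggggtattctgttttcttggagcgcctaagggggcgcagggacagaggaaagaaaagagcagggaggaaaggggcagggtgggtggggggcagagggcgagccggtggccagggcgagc

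CAGGAA stood in the windows of Lyve1 and Erg and not in those of Ednrb, S1pr1 and Npr3. Over the members, 12 of 27 windows held it (44.4%), against 24.6% of the 27457 promoters of this length. Another ETS core, CCGGAA, stood in 2 of 27 (7.41%, against 13.4% of all), and AACAAT, a core of SOX factors, in 3 of 27 (11.1%, against 10.3% of all), all searched on both strands. CAGGAA and CCGGAA share the letters GGAA, and a match is a description of letters only.

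Among the transcription factors, Erg, an ETS factor that keeps endothelial genes active, fell on D0. Its signal was 11.14 to 11.53 (median 11.39) in control rats of D0 and 11.14, 10.97, 11.04, 10.61 and 10.74 in exposed rats, so that the groups met at the lowest control rat. The difference was -0.47 (SE 0.116, 27.8% lower, limma adjusted p = 0.0284), and its 2 probes gave -0.45 and -0.49. The call was lost in the fits without control rat 1, 2, 4 or 5 or exposed rat 4 or 5 of D0 (limma adjusted p 0.0556 to 0.0995). On D28 control rats had 10.75 to 11.28 (median 11.13) and exposed rats 10.52 to 11.05 (median 10.86), which overlapped, with a difference of -0.25 (SE 0.110, limma adjusted p = 0.389).

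None of the 3 SoxF factors, which act in arterial and lymphatic endothelium, passed the adjusted p, and Sox7 and Sox18 had their larger differences on D28. Sox18 had 11.60 to 12.07 (median 11.69) in control rats of D28 and 10.96 to 11.48 (median 11.27) in exposed rats, with no overlap. The difference was -0.52 (SE 0.134, limma adjusted p = 0.0566). In the fits without 1 array its limma adjusted p ran from 0.0345, without control rat 2 of D0, to 0.132. On D0 its values ran from 11.32 to 12.10 (median 11.58) in control rats and were 11.80, 11.40, 11.27, 11.64 and 11.72 in exposed rats, a difference of -0.05. Sox7 differed by -0.01 on D0 and -0.43 on D28. Sox17 differed by -0.53 (SE 0.315) and -0.52 (SE 0.300), with the widest spread of the 3: exposed rat 4 of D0 read 3.65 where the other 4 read 5.34, 5.55, 5.69 and 5.25. Its signal was low, and it was well above background on 80% of the exposed arrays of D0. Prox1, the factor of lymphatic identity, differed by 0.11 and -0.20, and its 2 probes disagreed in sign on D28 (-0.47 and 0.08).

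Of the junction and surface proteins, all 8 had a lower mean in exposed rats on both days (32.1% of all genes), and none passed the adjusted p on a single day. Pecam1, the adhesion molecule most used to mark endothelium, had 12.92 to 13.64 (median 13.12) in control rats of D0 and 13.13, 12.91, 13.43, 12.93 and 13.02 in exposed rats. On D28 it had 13.19 to 14.16 (median 13.68) in control rats and 12.76 to 13.78 (median 13.42) in exposed rats. The groups overlapped broadly on both days, and the differences were -0.14 (SE 0.184, limma adjusted p = 0.924) and -0.34 (SE 0.175, limma adjusted p = 0.507).

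Cdh5, the VE-cadherin of adherens junctions, was tighter. On D0 it had 10.51 to 10.80 (median 10.65) in control rats and 10.50, 10.28, 10.53, 10.19 and 10.30 in exposed rats, and on D28 10.73 to 11.22 (median 10.84) and 10.39 to 10.70 (median 10.57). The groups overlapped slightly on D0 and not on D28. The differences of -0.29 (SE 0.0961, limma adjusted p = 0.140) and -0.33 (SE 0.0916, limma adjusted p = 0.0784) did not pass by day, while the mean of both, -0.31 (SE 0.0664, 19.3% lower, limma adjusted p = 0.00531), did. Each single-day difference passed in 4 of 14 alternative settings.

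The 2 connexins of arterial endothelium, Gja4 and Gja5, differed by -0.36 and -0.37 on D0 and by -0.13 and -0.28 on D28. Gja5 fell for the mean of both days by 0.32 on the log2 scale (SE 0.0869, limma adjusted p = 0.0266), a call lost without exposed rat 4 of D0 or exposed rat 1 of D28 (limma adjusted p 0.0513 and 0.0533) and with the brightest probe alone (0.110). Its signal was 10.15 to 10.61 (median 10.44) in control rats and 9.94, 10.08, 10.25, 9.93 and 10.01 in exposed rats of D0, and 9.89 to 10.68 (median 10.46) and 9.86 to 10.25 (median 10.15) on D28. The tight junction protein Cldn5 differed by -0.55 and -0.32, the adhesion molecule Esam by -0.23 and -0.12, and Ptprb, a phosphatase that acts on Tek and Cdh5, by -0.21 and -0.20.

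Emcn, a sialomucin of capillaries and veins, had the largest gap between days in this group. In control rats of D0 it had 9.96 to 10.45 (median 10.23) and in exposed rats 9.44, 9.74, 9.36, 9.96 and 9.61, with only exposed rat 4 reaching the lowest control. On D28 control rats ran from 8.99 to 10.17 (median 9.62) and exposed rats from 8.62 to 10.28 (median 9.69). The differences were -0.62 (SE 0.245, limma adjusted p = 0.249) and -0.00 (SE 0.234, limma adjusted p = 0.999), and the difference between them did not pass (unadjusted p = 0.0821 by limma). Its single probe spans 296 bases of the genome and so crosses an intron, as does 1 of the 2 probes of Nrp1, which spans 492 bases; these 2 probes are shown because they read spliced RNA.
Emcn, chr2:234958254-234958549 of rn4, plus strand: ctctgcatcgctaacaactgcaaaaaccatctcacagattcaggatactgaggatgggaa
Nrp1, chr19:58482301-58482792 of rn4, plus strand: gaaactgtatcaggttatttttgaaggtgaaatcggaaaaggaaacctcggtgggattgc

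The receptors and ligands of vessel growth and guidance had 9 of 10 members lower on D0 and 7 of 10 on D28 (50.1% and 51.2% of all genes). Tek, the receptor for angiopoietins that quiets vessels, fell on D28. It was read by 1 probe, at chr5:115196108-115196167 on the plus strand of rn4. Its signal on D28 was 13.96 to 14.36 (median 14.18) in control rats and 13.58 to 14.04 (median 13.66) in exposed rats, of which 5 lay at or below 13.68 and only rat 3 overlapped with the controls. The difference was -0.46 (SE 0.0994, 27.1% lower, limma adjusted p = 0.0246), lost without control rat 2, 4 or 5 or exposed rat 1 or 6 of D28 (limma adjusted p 0.0510 to 0.0641). On D0 control rats had 14.09 to 14.22 (median 14.12) and exposed rats 14.26, 13.95, 14.01, 13.61 and 13.98, a difference of -0.18 (SE 0.104, limma adjusted p = 0.573). Exposed rat 1 was above all controls of D0 and the other 4 were below them. Tie1, the partner of Tek, differed by -0.28 on D0 and 0.19 on D28.

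Of the VEGF receptors, Flt1, which binds VEGF tightly and signals weakly, fell for the mean of both days by 0.34 on the log2 scale (SE 0.0768, limma adjusted p = 0.00758). On D0 its signal was 8.60 to 8.73 (median 8.65) in control rats and 8.51, 8.34, 8.37, 7.96 and 8.26 in exposed rats, which did not overlap. On D28 it was 8.36 to 8.89 (median 8.78) and 8.18 to 8.59 (median 8.34), which did. With the brightest of its 4 probes alone the mean effect missed the threshold (limma adjusted p = 0.0526). Kdr, the main signalling receptor for VEGF, differed by -0.11 and -0.16, and Flt4, the receptor of lymphatic vessels, by -0.16 and 0.03.

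Nrp1, a co-receptor for VEGF and semaphorins, was the 1 member that differed between the control groups. Its signal in control rats was 10.10 to 10.47 (median 10.19) on D0 and 10.83 to 11.23 (median 10.95) on D28, with no overlap, so Nrp1 rose by 0.74 from one control group to the other (SE 0.130, limma adjusted p = 0.00511; 0.573% of all genes rose by this rule and 0.304% fell). In exposed rats it was 9.93, 10.03, 10.57, 9.96 and 9.92 on D0 and 10.14 to 10.87 (median 10.63) on D28. The differences from control rats were -0.16 (SE 0.136, limma adjusted p = 0.803) and -0.41 (SE 0.130, limma adjusted p = 0.152), and on D28 the probe printed above gave -0.19 and the other -0.62. Among the control groups 10 members had an unadjusted p below 0.05, of which 6 were higher on D28 (6.52% of all genes) and 4 lower (6.74%), and Pecam1 was 0.46 higher on D28 (SE 0.175, limma adjusted p = 0.256).

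The ligand Efnb2 of arterial cells and its receptor Ephb4 of venous cells both had lower means in exposed rats. Efnb2 fell for the mean of both days by 0.32 on the log2 scale (SE 0.0729, limma adjusted p = 0.00893). On D0 it had 9.78 to 10.18 (median 9.94) in control rats and 9.73, 9.62, 9.80, 9.29 and 9.74 in exposed rats, and on D28 9.97 to 10.23 (median 10.08) and 9.61 to 10.13 (median 9.72), with some overlap each time. The 2 probes of Efnb2 were unlike in size, at -0.60 and -0.04 on D0 and -0.40 and -0.23 on D28. Ephb4 differed by -0.13 on D0 and -0.35 on D28, and its exposed and control rats did not overlap on D28. Eng, a co-receptor for BMP ligands, differed by -0.29 and 0.01, and Robo4, a guidance receptor of endothelium, by 0.06 and -0.13.

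The remaining 8 members, markers of capillary, lymphatic and other vessel cells, all had lower means in exposed rats on both days (32.1% of all genes). Lyve1, a hyaluronan receptor of lymphatic endothelium that some macrophages also carry, fell on D0. Its signal was 12.08 to 12.49 (median 12.36) in control rats of D0 and 12.14, 11.93, 11.86, 11.20 and 11.60 in exposed rats, of which only rat 1 reached the controls. The difference was -0.58 (SE 0.141, 33.0% lower, limma adjusted p = 0.0269), and it was lost without control rat 2, 5 or 6 or exposed rat 4 or 5 of D0 (limma adjusted p 0.0556 to 0.0874). On D28 control rats had 12.0025 to 12.51 (median 12.30) and exposed rats 11.51 to 12.04 (median 11.76), with a difference of -0.51 (SE 0.135, limma adjusted p = 0.0687). In the fits without 1 array the limma adjusted p of D28 ran from 0.0270, without exposed rat 4 of D0, to 0.169. The mean of both days was -0.54 (SE 0.0976, limma adjusted p = 0.00133).

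Egfl7, a matrix protein secreted by endothelium, and Plvap, the protein of capillary diaphragms, passed only for the mean of both days. Egfl7 fell by 0.29 on the log2 scale (SE 0.0788, limma adjusted p = 0.0284). It had 12.87 to 13.28 (median 13.17) in control rats of D0 and 12.87, 12.56, 12.74, 12.60 and 12.86 in exposed rats, just without overlap, and 12.65 to 13.27 (median 13.08) and 12.71 to 13.07 (median 12.78) on D28. Its call was lost without control rat 1, 4 or 5 or exposed rat 2 or 4 of D0, or control rat 5 or exposed rat 1 of D28 (limma adjusted p 0.0502 to 0.0617).

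Plvap fell by 0.26 (SE 0.0781, limma adjusted p = 0.0445) and had 15.91 to 16.15 (median 16.07) in control rats of D0, 15.70, 15.93, 15.88, 15.41 and 15.66 in exposed rats, and 15.79 to 16.31 (median 15.97) and 15.52 to 16.19 (median 15.83) on D28. The groups overlapped on both days. Its call was lost in 16 of the 23 fits without 1 array (limma adjusted p 0.0560 to 0.0967), namely all but those without control rat 2 or exposed rat 2 or 3 of D0, or control rat 1, 3 or 6 or exposed rat 3 of D28. Tmem100, a capillary protein of BMP signalling, differed by -0.31 on D0 and -0.28 on D28, Car4, the carbonic anhydrase of aerocytes, by -0.34 and -0.07, and the water channel Aqp1 by -0.27 and -0.19. Vwf, the clotting factor stored in larger vessels, differed by -0.12 and -0.22, and Gpihbp1, the anchor of lipoprotein lipase, by -0.28 and -0.05 at signals near background.

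Other genes of endothelium, also listed with earlier results of these data known, had mostly lower means in exposed rats. Of 47 measured genes of a further endothelial list, none of them members, 40 were lower on D0 and 42 on D28 (50.1% and 51.2% of all genes). Their medians were -0.30 and -0.17. On D0 7 of them fell with a limma adjusted p below 0.05 and none rose (1.35% and 1.51% of all genes). Apold1, an early response gene of endothelium, was the 1 that also reached the FC of 1.5, at -1.09 (SE 0.220, limma adjusted p = 0.00672) on D0 and -0.01 on D28. On D28 2 of this list fell and none rose (0.534% and 0.782% of all genes). By vessel segment, all of the 8 aerocyte genes, 5 of them members, were lower on both days (32.1% of all genes), with medians of -0.41 and -0.22. Fibin, the 1 gene called there that is no member, was at -0.71 (SE 0.145, limma adjusted p = 0.00781) and -1.05 (SE 0.138, limma adjusted p = 3.93e-04). The 8 general capillary genes, 6 of them members, had medians of -0.22 and -0.12, the 8 arterial genes -0.34 and -0.19, and the 7 lymphatic genes -0.16 and -0.16. Whether segments differed from each other was not tested.

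A list of ligands of these receptors and of related genes, among them other receptors and enzymes, was less one-sided. Of its genes 3 were also in other lists. Of 45 measured, 34 were lower on D0 and 30 on D28 (50.1% and 51.2% of all genes), with medians of -0.14 and -0.10. On D0 4 fell by the adjusted p, among them Vegfd, a ligand of Flt4, at -0.98 (SE 0.179, limma adjusted p = 0.00312), and Gdf2, a ligand that binds Eng, at -0.81 (SE 0.203, limma adjusted p = 0.0309), with -0.29 and -0.12 on D28. Sphk1, which makes the S1P that S1pr1 binds, rose on D28 by 0.70 (SE 0.141, limma adjusted p = 0.0141) and differed by 0.34 on D0. Of 5 adhesion genes of activated vessels, Sele, the E-selectin on which leukocytes roll, rose by 1.23 on D0 (SE 0.298, limma adjusted p = 0.0255) and differed by 0.38 on D28.

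Markers of other cell types moved with exposure too, and their part in the endothelial differences was not tested. The 8 alveolar type I genes and the 8 ciliated cell genes were lower on both days in every case (32.1% of all genes were). Their medians were -0.26 and -0.24 and -0.28 and -0.42, and 1 of the type I genes was also in another list. The mean signal of the type I list was 12.98 to 13.10 in control and 12.57 to 12.92 in exposed rats of D0, and 12.95 to 13.30 and 12.83 to 13.05 on D28, and that of the ciliated list was 9.26 to 9.45 and 8.70 to 9.37, and 9.21 to 9.64 and 8.70 to 9.23. All 7 measured genes of cardiac muscle, which in rats sheathes the pulmonary veins, were lower on both days (medians -0.47 and -0.43), among them Myl7 at -0.60 and -0.63 (limma adjusted p = 0.0099 and 0.0107); the mean signal of this list was 8.74 to 9.11 in control and 8.30 to 8.78 in exposed rats of D0, and 8.78 to 9.26 and 8.45 to 8.64 on D28. Macrophage genes went the other way: 9 of 10 had a higher mean in exposed rats on D0 and 8 on D28 (49.9% and 48.8% of all genes), with medians of 0.41 and 0.16. By the adjusted p 3 macrophage genes rose on D0 and 2 on D28 (1.51% and 0.782% of all genes). Their mean signal was 8.35 to 8.70 in control and 8.81 to 9.21 in exposed rats of D0, and 8.23 to 8.72 and 8.66 to 8.90 on D28. Chi3l1 rose by 1.19 and 0.95 (limma adjusted p = 0.00617 and 0.0371) and Siglec1 by 0.89 on D0 (limma adjusted p = 0.00262). The 9 alveolar type II genes had medians of 0.24 and 0.11.

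The 8 neutrophil genes had medians of -0.04 and -0.12, with Cd177 up by 1.095 and 1.06 (limma adjusted p = 0.028 and 0.0425), and the 9 genes of other leukocytes of -0.07 and 0.08. The 10 mural genes of pericytes and smooth muscle had medians of -0.22 and -0.11, with Notch3 up by 0.77 (limma adjusted p = 9.93e-04) and Rgs5 down by 0.65 (limma adjusted p = 0.045) on D0, and the 7 fibroblast genes of -0.12 and -0.21, with Tcf21 down by 0.66 on D0 (limma adjusted p = 0.0193).

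**Figure D4:**
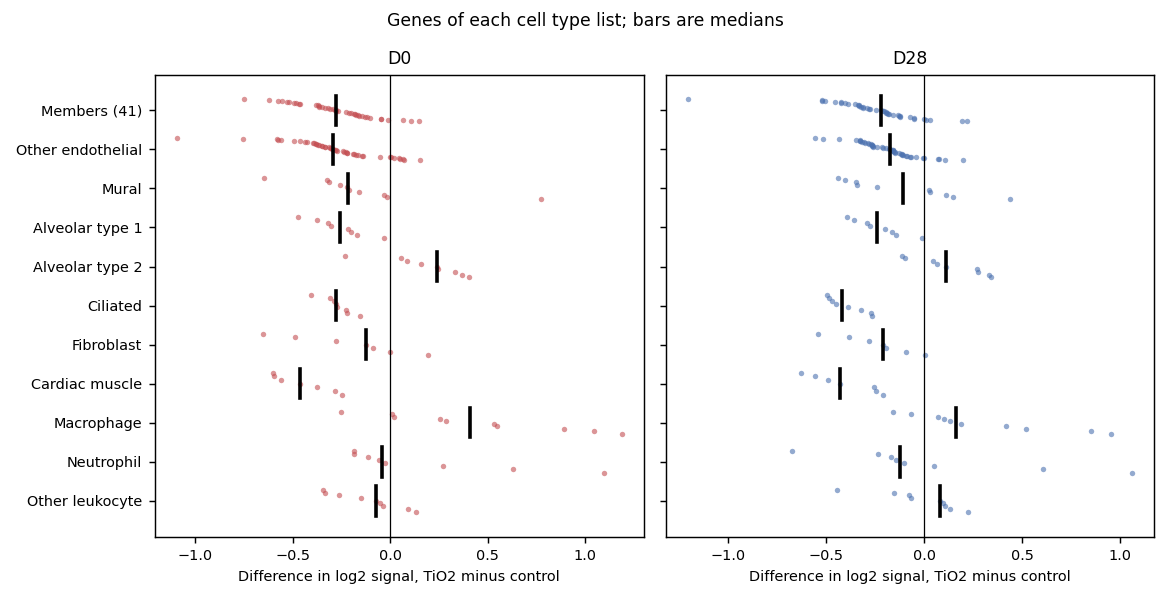
Difference in log2 signal between exposed and control rats for each gene (points) of the endothelial members and of lists for other cell types, on D0 (left) and D28 (right); black bars are list medians. The members, with medians of -0.28 and -0.22, lie beside the alveolar type I list at -0.26 and -0.24, while the macrophage list lies to the right of 0.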

How the data were processed

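The authors deposited the scanner output of each array, whose linear intensities per spot have local background removed but no scaling across arrays, and 1 table of all arrays with quantile normalized intensities, used as an alternative. Per the labels the software was Agilent Feature Extraction 11.0.1.1, while the header of 1 file, that of control rat 4 of D28, gives 12.0.1.1. Control spots were left out and spots marked as outliers set missing. Of 45598 probes, 40421 exceeded the 95th percentile of 308 negative control spots on at least 5 arrays and were log2 transformed, quantile normalized and averaged per gene, by the symbols in the file of the later software, which gave 23032 genes (29 with a missing value were dropped). Positions of probes are those of rn4 in the files; promoters are from RefSeq (GRCr8). One limma 3.58.1 model (R 4.3.3) with 4 group means and 19 residual degrees of freedom gave all differences, with Benjamini-Hochberg adjustment over all genes and FC of at least 1.5; the script was tested on simulated data. Signal over background, not a count, sets the precision, and the number of rats limits it. Members and gene lists were drawn up from general knowledge with earlier results of these data known. Named were Pecam1, Cdh5, members with an adjusted p below 0.05 in any comparison and the 3 largest differences of each day with their values, the other members with their differences only, and genes of other lists past both limits. The alternatives are given below. The batches the study corrected for are not named in the sources used here.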

Additional observations from a re-analysis of the deposited data

Results flagged for a closer look

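Within a group of 5 or 6 rats, 7 of the 76 groups of values tested held a rat that lay far from the others by Dixon's test at the 95% level, which chance gives for about 1 in 20 groups. Tek read 14.04 in exposed rat 3 of D28, where the next highest rat read 13.68, and Ednrb read 11.21 in the same rat, next to 10.97. Nrp1 read 10.57 in exposed rat 3 of D0, next to 10.03. Sox17 read 3.65 and Apln 12.26 in exposed rat 4 of D0, where the next lowest rats read 5.25 and 12.73. Ednrb read 11.04 in control rat 3 of D0, next to 11.25, and Plvap 15.91 in control rat 2 of D0, next to 16.07. Without exposed rat 4 of D0, the rat with the lowest mean of the members, the median difference of D0 was -0.24 and 2 members passed the adjusted p (2% of all genes). Without exposed rat 3 of D28 the median of D28 was -0.28 and 3 members passed (1.15% of all genes).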

How the results depend on the processing

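In no fit did any of the 34 single-member results below change direction, and no median of the members did so in any setting. Differences of other members or in other comparisons, none past the adjusted p, turned sign in some fit: 5 on D0 (Calcrl, Ece1, Robo4, Sox7 and Sox18), 7 on D28 (Aplnr, Car4, Emcn, Eng, Flt4, Gpihbp1 and Ramp3) and 5 for the mean effect (Gpihbp1, Prox1, Ramp3, Robo4 and Tie1). Within single slides, some of the 34 results did turn sign on D0. Npr3 and Tek were at 0.12 and 0.04 within slide 2, and Cdh5 was at 0.015 within slide 4. The other D0 and D28 results among the 34 were lower in exposed rats within every slide that held both groups. Some members that passed for the mean effect only were above 0 within slide 4. These were Apln and Efnb2 on D0 (0.13 and 0.02) and Gja5 and Flt1 on D28 (0.05 and 0.006). In 14 settings other than the omission of an array, 36 to 39 members were lower on D0 and 37 to 39 on D28, and in 13 settings 40 or 41 for the mean effect; the median over all genes moved by at most 0.03. The median of the members was -0.34 to -0.24 on D0 and -0.29 to -0.20 on D28 in the fits without 1 array, and -0.46 within slide 1 and -0.12 within slide 4 on D0. On D0, the 1 member past both limits became 2 with the brightest probe, with only the arrays of D0, with the slide as a block and with an unadjusted p, 3 with array weights and 4 without the FC limit; leaving out an array gave 1 to 2. Past the adjusted p alone, 4 became 9 with normexp correction and with the deposited table, 12 with array weights and 10 with the slide as a block, where 658 of all genes became 901, 765, 1374 and 1235, and 2 to 5 without 1 array. On D28, 1 member became 3 without the FC limit and stayed 1 without any 1 array; past the adjusted p alone, 3 became 7 with normexp, 5 with the filter by the software's background mark, 6 with an intensity trend and robust estimation and 1 with only the arrays of D28, where 303 of all genes became 429, 392, 394 and 45, and 1 to 4 without 1 array. For the mean effect, 2 became 1 with 75th percentile scaling, cyclic loess or normexp and 13 without the FC limit, and 1 to 2 without 1 array; past the adjusted p, 13 became 22 with the slide as a block (1509 and 2399 of all genes) and 10 to 15 without 1 array. Between control groups, 1 became 2 with array weights, 5 with an unadjusted p and, past the adjusted p, 2 with normexp, the deposited table, array weights or the slide as a block, and was 1 without any 1 array. The effect between days gave 0 members in all settings. In the fits without 1 array, 1.97% to 3.17% of all genes passed the adjusted p on D0 and 0.643% to 1.69% on D28. For the mean effect 5.64% to 6.82% did.

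Deviations from the group mean in exposed and control rats of the same replicate number had correlations of -0.22 to -0.12 on D0 and -0.17 to 0.46 on D28. The highest was that of replicate 5 of D28, the only pair that shared a slide. Whether the numbers pair rats cannot be told from these values, and the main fit used no pairing. With the replicate number as a block, 4 members passed the adjusted p on D0, 1 on D28 and 12 for the mean effect, of which 1 reached the FC limit. Of all genes 536, 206 and 1403 passed with this block, against 658, 303 and 1509 without it. Of 34 results of single members, 21 were past the adjusted p; 13 of these stayed past it in every setting, and 8 did not in some: Ednrb and Tek on D28 with only the arrays of that day or the replicate block, Ednrb also with the brightest probe, Lyve1 on D0 with only the arrays of that day, Egfl7 with the replicate block, Plvap with normexp, the deposited table or the replicate block, Gja5 and Flt1 with the brightest probe, and Erg on D0 only without 1 array. Of the 13 not past it, 6 came past it in some setting: Cdh5 and Lyve1 on D28, Cdh5 and Emcn on D0, Sox18 on D28 and Pecam1 for the mean effect. The cause was not tested. Sox17 was well above background on 80% of the exposed arrays of D0 and 100% of those of each other group. Gpihbp1 was so on 60% to 66.7% of arrays in all groups but the control rats of D0. Small differences of these genes cannot be read.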
